A study of Mus musculus with 3 samples.

Results

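The immediate early genes of the AP-1 and Egr families were examined in c2c12 cells, mouse myoblasts of an established line whose cells fuse into multinucleated myotubes once serum is reduced. The genes are Fos, Fosb, Fosl1, Fosl2, Jun, Junb, Jund, Egr1, Egr2 and Ier2. They were taken by symbol from the count files, and all 10 were found, among 23238 symbols. Near confluence the growth medium was exchanged for induction medium with 2% horse serum, in which the cells were kept for 2 days on 1 of 3 substrates. According to the methods, the cells were already seeded on these substrates in growth medium. These were the tissue culture plate (TCP), a hydrogel of methacrylated gelatin (GelMA), and GelMA-PSS, a hydrogel of 15% methacrylated gelatin with 1% poly(sodium 4-styrenesulfonate), a negatively charged polymer that mimics heparin. All groups share the cell line and the induction medium, no group was left in growth medium, and the line is a single immortalized line rather than primary muscle. The question was whether the substrate, and PSS within it, moved the levels of these genes. Only 1 library was sequenced per substrate, so the differences could not be checked between replicates and carry no p-values. All intervals are 95% intervals that cover counting error only.

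AP-1 is a dimer of basic leucine zipper proteins. Fos proteins (Fos, Fosb, Fosl1 and Fosl2) dimerize with Jun proteins (Jun, Junb and Jund), which can also pair with each other, and the dimer binds DNA at AP-1 sites. Egr1 and Egr2 are zinc finger transcription factors, and Ier2 is a short nuclear protein. Most of these genes are switched on within minutes of a stimulus such as serum or a growth factor, through mitogen-activated protein kinases and the serum response factor, and their mRNAs are short-lived. In myoblasts AP-1 activity is known for its link to proliferation and for its opposition to MyoD, the factor that commits cells to the muscle lineage.

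Positions are those of GRCm38. Fos lies on chromosome 12 from 85473890 to 85477273, Fosb on chromosome 7 from 19302696 to 19310051, Fosl1 on chromosome 19 from 5447547 to 5455946 and Fosl2 on chromosome 5 from 32135801 to 32157842. Jun lies on chromosome 4 from 95049034 to 95052222. Chromosome 8 holds Jund from 70698949 to 70700616, Ier2 from 84661331 to 84662852 and Junb from 84974484 to 84978718. Egr2 lies on chromosome 10 from 67535475 to 67542188. The median transcript length was 2536.5 bases for the members and 2911 over all tested genes. Jun, Junb, Jund and Ier2 consist of 1 exon, and 4 of 10 members with 1 exon compare with 3.79% of all tested genes. The transcripts run from 1522 bases in Ier2 to 6537 in Fosl2, and their median GC content was 56.6%, against 50.4% over all tested genes. In the part of the transcript after the stop codon, 9 of the 10 carry the pentamer ATTTA, a component of elements that mark mRNAs for rapid decay, against 66.4% of genes with such a region. Fosl2 has 8 copies, Fos and Jun have 4 each, and Ier2 has none.

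Promoter windows from RefSeq (GRCm38.p6) were used for 7 members, without Fosl1, Egr1 and Ier2, and the 250 bases before each start were searched on both strands. The 150 bases before the start of Fos, Jun and Egr2 are shown 5′ to 3′ on the strand of the gene because these windows hold matches to the sites through which such genes are known to be induced. Capitals mark the matches. In Fos they are TGACGT, the core of a site for CREB and ATF factors, and TATAAA. In Jun they are TGACATCA, a site bound by Jun and ATF2, and a MEF2 site, the motif of the Mef2 factors of muscle. In Egr2 they are a CArG box, the motif of the serum response factor, and TGACGT on the opposite strand.
Fos, chr12:85473740-85473889, plus strand: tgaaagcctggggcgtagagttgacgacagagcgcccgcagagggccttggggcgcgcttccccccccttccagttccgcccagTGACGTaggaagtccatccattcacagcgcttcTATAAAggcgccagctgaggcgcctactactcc
Jun, chr4:95052223-95052372, minus strand: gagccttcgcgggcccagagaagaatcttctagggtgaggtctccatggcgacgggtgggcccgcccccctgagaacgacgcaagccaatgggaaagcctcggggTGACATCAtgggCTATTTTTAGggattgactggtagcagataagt
Egr2, chr10:67537719-67537868, plus strand: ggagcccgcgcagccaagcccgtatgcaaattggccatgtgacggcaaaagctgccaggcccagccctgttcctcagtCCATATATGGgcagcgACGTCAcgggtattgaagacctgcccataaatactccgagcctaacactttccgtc
In the window shown, the CArG box of Egr2 lies 72 to 63 bases before the start, and the MEF2 site of Jun lies 33 to 24 bases before its start. Egr2 had several windows with different starts, and the one shown has its start at 67537869. The window with its start at 67535499, near the 5′ end of the gene, held no match. The percentages that follow are per window and make no allowance for a gene with several. Among 32817 promoter windows of the same length, 1.47% hold a CArG box, 2.92% a MEF2 site, 6.46% TGACGT, 2.93% TGACATCA and 12.4% TATAAA. The full site TGACGTCA, which contains TGACGT, and the AP-1 site TGACTCA matched in 1.55% and 4.46% of all windows and in no window used for these 7 members. The Egr site GCGGGGGCG, present in 2.57% of all windows, matched in Fosb and Fosl2. The matches describe the letters in these windows and say nothing of binding in these cells.

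The TCP library held 119799095 counts, the GelMA library 87071144 and the GelMA-PSS library 192171443. Levels are given as CPM, the counts relative to library size after scaling by TMM factors, which were 1.02, 1.04 and 0.943, and ratios as differences in log2(CPM + 1), a scale on which the ratios of weakly expressed genes are compressed. The muscle genes Myog, Des and Acta1 had CPM values of 895 or more in every library, and the 8 markers of leukocytes, endothelium, epithelium, fat and glia summed to a CPM of 1.65 to 2.07, most of it from Cd68 (1.53 on TCP, 1.71 on GelMA and 1.37 on GelMA-PSS), with Ptprc at 0 counts on TCP and GelMA and 4 on GelMA-PSS. The 9 muscle markers summed to 23121 on TCP, 17430 on GelMA and 14164 on GelMA-PSS, sums set mainly by the most abundant genes, such as Myh3 and Acta1. The median log2 ratio of the 9 for GelMA-PSS was 0.14 over GelMA, with 5 above 0, and -0.09 over TCP, with 3 above 0. After the correction for transcript length and GC content described below, these medians were -0.09 and -0.32. On GelMA-PSS 3 of the 9 were higher than on both controls, with Myod1 at 94.3, 105 and 119. Another 4 were lower, with Myh3 at 10182, 6355 and 3037. What part such differences in the state of the cells had in the values below was not tested. In such bulk libraries fewer cells of a type and less RNA per cell cannot be told apart.

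All 10 members passed the limit of a CPM of 1 in at least 1 library, as did 13169 genes in all. Their CPM spanned a wide range, from a CPM of 1.34 for Fosb on TCP to 359 for Egr1 on GelMA. With TMM scaling none of the 10 was highest on TCP. Fosb, Fosl2, Junb, Egr1 and Egr2 were highest on GelMA, and Fos, Fosl1, Jun, Jund and Ier2 were highest on GelMA-PSS. Of all tested genes, 29.0% were highest on TCP, 25.7% on GelMA and 45.3% on GelMA-PSS. This order depended on the scaling. For TPM, counts were divided by transcript length and then by the library's sum of such length-scaled counts, without TMM factors. With TPM, Fos and Jund were highest on TCP, the other 8 were highest on GelMA and none on GelMA-PSS.

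**Figure D1:**
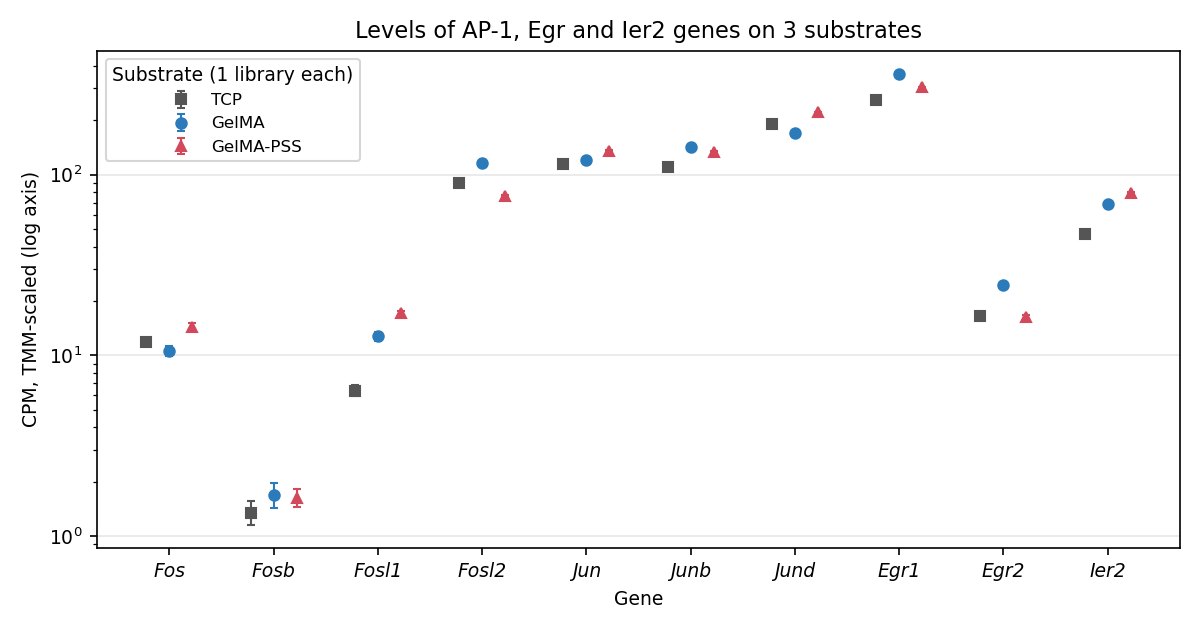
TMM-scaled CPM of the 10 genes (log axis) in the TCP (squares), GelMA (circles) and GelMA-PSS (triangles) libraries, with 95% Wilson intervals for counting error. No gene is highest on TCP with this scaling (Fos and Jund are with TPM), and Fosl1 shows the widest separation, from 6.39 on TCP to 17.1 on GelMA-PSS.

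Within the Fos family, Fosl1 differed most between substrates. Fosl1 encodes Fra-1, a Fos protein without a strong activation domain that is known for its part in proliferating and migrating cells. Its CPM was 6.39 on TCP (95% interval from 5.96 to 6.85), 12.7 on GelMA (from 12.0 to 13.5) and 17.1 on GelMA-PSS (from 16.5 to 17.7). The level was thus lowest on TCP and highest on GelMA-PSS, with no overlap of the counting intervals. On the log2 scale GelMA-PSS exceeded TCP by 1.29 ± 0.05 (counting SE) and GelMA by 0.40 ± 0.05, and GelMA exceeded TCP by 0.89 ± 0.06. In CPM, Fosl1 was 2.67-fold higher on GelMA-PSS and 1.99-fold higher on GelMA than on TCP. Fosl1 shares 1163 of its 1864 exonic bases with Ccdc85b on the opposite strand, and the sources do not say whether the counting used strand. Ccdc85b ran in the same order, with a CPM of 15.9 on TCP, 22.2 on GelMA and 33.4 on GelMA-PSS and log2 ratios of GelMA-PSS of 1.02 against TCP and 0.57 against GelMA. How far reads of one gene entered the count of the other was not tested.

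Fosl2, which encodes Fra-2, was the most abundant Fos gene in every library and ran the other way. Its CPM was 89.3 on TCP, 116.1 on GelMA and 76.2 on GelMA-PSS, so that it was lowest on GelMA-PSS. Its log2 ratios were -0.60 ± 0.02 for GelMA-PSS over GelMA, -0.23 ± 0.02 for GelMA-PSS over TCP and 0.37 ± 0.02 for GelMA over TCP. Fos itself, the founding member of the family, had a CPM of 11.9 on TCP, 10.6 on GelMA and 14.4 on GelMA-PSS. Its counting intervals on TCP (from 11.3 to 12.5) and on GelMA (from 9.91 to 11.2) lay side by side, and that on GelMA-PSS (from 13.9 to 15.0) lay above both. Fos on GelMA-PSS thus lay 0.42 ± 0.05 above GelMA and 0.26 ± 0.04 above TCP on the log2 scale. Fosb was barely expressed. It had 163 counts on TCP, 153 on GelMA and 295 on GelMA-PSS, or a CPM of 1.34, 1.68 and 1.63, and the 3 counting intervals overlapped.

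The Jun genes were more abundant and closer together. Jun encodes the main transactivating partner of Fos. Its CPM was 114 on TCP, 120.5 on GelMA and 134 on GelMA-PSS, so that GelMA-PSS exceeded GelMA by 0.16 ± 0.02 and TCP by 0.23 ± 0.02 on the log2 scale. Junb, whose product is often described as a weaker activator that restrains Jun, had a CPM of 109.8 on TCP, 142 on GelMA and 134 on GelMA-PSS. On both hydrogels Junb was higher than on TCP, with log2 ratios of 0.37 ± 0.02 for GelMA and 0.28 ± 0.02 for GelMA-PSS, and the hydrogels differed by -0.08 ± 0.02. Jund, the Jun gene with the steadiest expression in most cells, had a CPM of 189.9 on TCP, 169.8 on GelMA and 221 on GelMA-PSS. It thus shared the order of Fos, lowest on GelMA and highest on GelMA-PSS, and its log2 level on GelMA-PSS exceeded that on GelMA by 0.38 ± 0.01 and that on TCP by 0.22 ± 0.01. Jun and Jund share 232 and 877 exonic bases with the antisense genes Junos and Gm11175, for which no values were used here. The counting intervals of the 3 Jun genes did not overlap between any pair of libraries, but differences of this size between cultures of the same substrate were not measured.

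Both Egr genes were highest on GelMA. Egr1, a zinc finger factor induced by serum and growth factors, had the highest CPM of the 10 genes on every substrate, at 259 on TCP, 359 on GelMA and 304 on GelMA-PSS. GelMA lay 0.47 ± 0.01 above TCP on the log2 scale, and GelMA-PSS lay between them, 0.23 ± 0.01 above TCP and -0.24 ± 0.01 relative to GelMA. Egr2, its relative known from Schwann cells and the hindbrain, had a CPM of 16.6 on TCP, 24.6 on GelMA and 16.2 on GelMA-PSS. Its counting interval on GelMA (from 23.6 to 25.6) lay above those on TCP (from 15.9 to 17.3) and GelMA-PSS (from 15.6 to 16.8), which overlapped. The log2 ratio for Egr2 was 0.54 ± 0.04 for GelMA against TCP, -0.57 ± 0.04 for GelMA-PSS against GelMA and -0.03 ± 0.04 for GelMA-PSS against TCP. Ier2 followed the order of Fosl1 and Jun. Its CPM was 46.8 on TCP, 69.2 on GelMA and 79.0 on GelMA-PSS, with log2 ratios of GelMA-PSS of 0.74 ± 0.02 against TCP and 0.19 ± 0.02 against GelMA, and of 0.55 ± 0.03 for GelMA against TCP.

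Most of the 10 genes had higher levels on GelMA than on TCP, whatever the scaling. Most were also higher on GelMA-PSS than on TCP with TMM scaling, although with TPM only 2 were, and the ratios of GelMA-PSS to GelMA lay on both sides of 0, with all 10 below 0 in TPM. The 3 comparisons share libraries, so their values are given side by side and are not independent. For GelMA over TCP, 8 of 10 members had a log2 ratio above 0, as did 48.3% of all tested genes, and the median was 0.37 for the members and -0.01 for all genes. For GelMA-PSS over TCP, 8 of 10 lay above 0, as did 52.8% of all genes, with medians of 0.23 and 0.04. For GelMA-PSS over GelMA, 5 of 10 lay above 0, as did 53.1% of all genes, with medians of 0.06 and 0.03. The paper's methods name a 2-fold change in FPKM together with a p-value limit, and its results section names a 1.5-fold change. Here only the fold change was applied, on the scale of CPM + 1. At 2-fold, 1 member (Fosl1) passed for GelMA-PSS against TCP, where 6.85% of all tested genes passed, 3.72% upward and 3.13% downward. No member passed for GelMA-PSS over GelMA, where 4.10% of all genes did (1.77% upward and 2.33% downward), or for GelMA over TCP, where 1.00% did (0.706% upward and 0.296% downward). At 1.5-fold, Fosl1 and Ier2 passed upward for GelMA-PSS over TCP, where 13.2% of all genes passed upward and 11.5% downward. Fosl2 passed downward for GelMA-PSS over GelMA, against 11.0% of all genes upward and 10.8% downward, and Fosl1 passed upward for GelMA over TCP, against 3.50% upward and 2.12% downward. Measured against both controls, 5 members were higher on GelMA-PSS (Fos, Fosl1, Jun, Jund and Ier2) and 2 were lower (Fosl2 and Egr2, joined with TPM by all others but Fosl1 and Ier2), against 45.3% and 39.3% of all genes, and the other 3 lay between the controls, as did 15.4% of all genes. No member passed 2-fold against both controls, which 1.37% of all genes did upward and 1.16% downward.

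**Figure D2:**
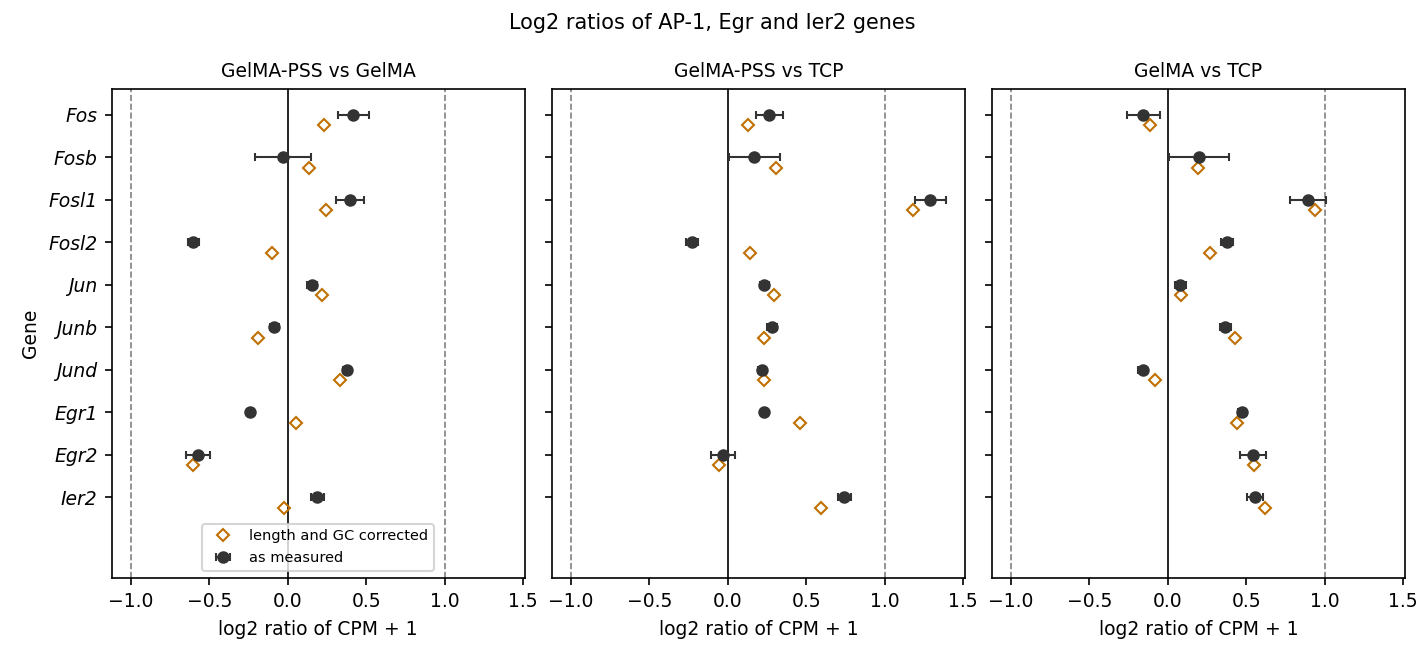
Log2 ratios of CPM + 1 (TMM scaling) of the 10 genes in the 3 comparisons, with filled circles and 95% counting intervals as measured, open diamonds after correction for transcript length and GC content, and dashed lines at 2-fold. Fosl1 passes the line against TCP, 8 of 10 genes lie right of 0 for GelMA against TCP, and Fosl2 and Egr1 move most with the correction when GelMA-PSS is compared with GelMA.

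The ratios of GelMA-PSS followed transcript length across all genes. Across 13053 genes, which are not independent replicates, Spearman's rho of the log2 ratio with transcript length was -0.66 for GelMA-PSS over GelMA, -0.50 for GelMA-PSS over TCP and 0.21 for GelMA over TCP. The longest member, Fosl2, was the lowest of the 10 on GelMA-PSS against GelMA, and the shorter Fos, Fosl1 and Jund were the highest. Other members did not follow this order, since Ier2, the shortest, lay at 0.19, Junb, with 1809 bases, at -0.08 and Egr2, with 2965 bases, at -0.57. A loess correction for transcript length and GC content brought Fosl2 from -0.60 to -0.10 against GelMA and from -0.23 to 0.14 against TCP. Relative to GelMA it brought Egr1 from -0.24 to 0.05, Ier2 from 0.19 to -0.02 and Fosb from -0.03 to 0.13. By contrast, Egr2 stood at -0.60 against GelMA after the correction, close to its value as measured. Fosl1 went from 1.29 to 1.18 against TCP and from 0.40 to 0.24 against GelMA. Fos was reduced from 0.42 to 0.23 against GelMA, and Jund stood at 0.33. For GelMA against TCP the correction moved the members little, with a median of 0.35. What sets the dependence on length was not tested.

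**Figure D3:**
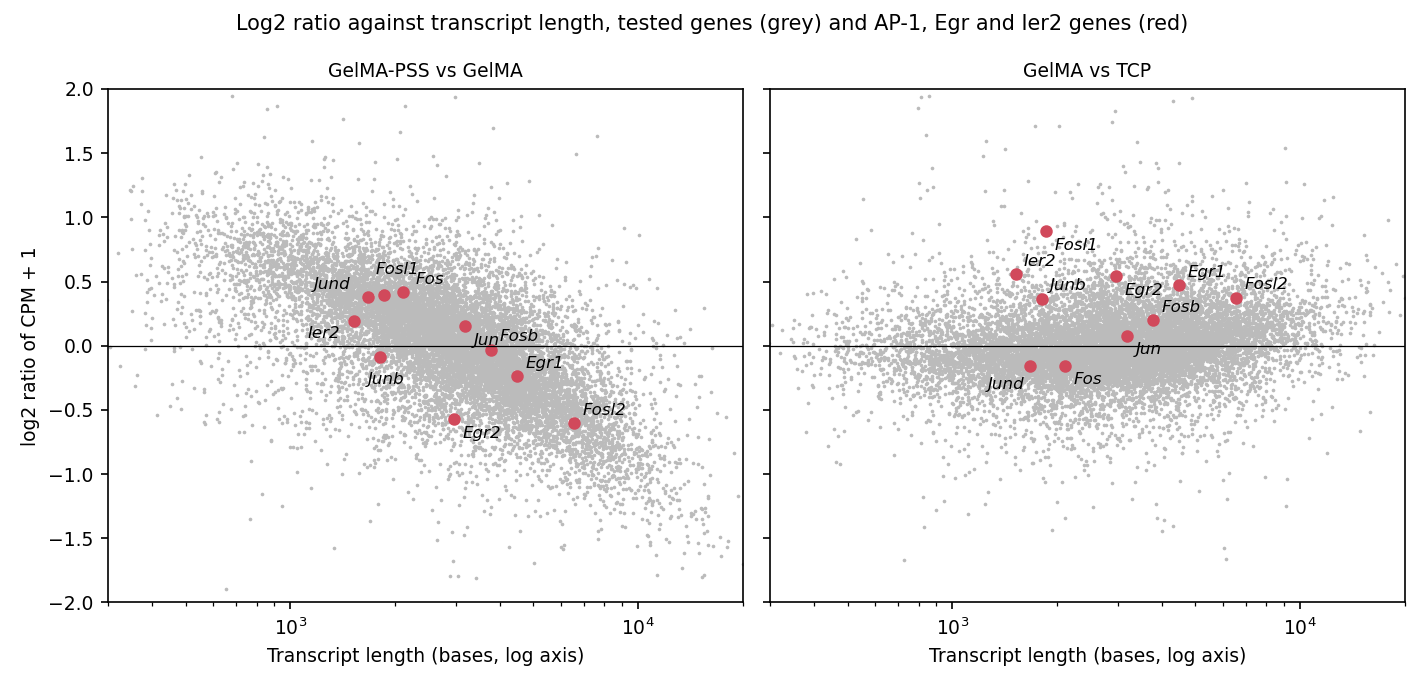
Log2 ratio of CPM + 1 (TMM scaling) against transcript length (log axis) for GelMA-PSS against GelMA (left) and GelMA against TCP (right), with tested genes in grey (151 on the left and 134 on the right lie beyond the axes) and the 10 genes in red. On the left Fosl2, with 6537 bases, lies in the falling band of long genes, and on the right 8 of the 10 genes lie above 0.

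The scaling also decided the direction of small ratios. With TPM the median of all genes moved to -0.36 for GelMA-PSS over GelMA and to -0.31 for GelMA-PSS over TCP, and 5 and 6 members changed sign, which left none of the 10 above 0 over GelMA and 2 (Fosl1 and Ier2) above 0 over TCP. The genes past 2-fold were then 38 upward and 1031 downward for GelMA-PSS over GelMA, in place of 233 and 307, and 142 and 1045 for GelMA-PSS over TCP, in place of 490 and 412. Relative to the median of all genes in TPM, Fosb alone changed side, against GelMA. In TPM, Fosl1 lay 0.91 above TCP on GelMA-PSS, short of 2-fold. With total counts alone the genes past 2-fold were 120 upward and 506 downward for GelMA-PSS over GelMA and 338 and 576 for GelMA-PSS over TCP. No member changed sign for GelMA against TCP under any of the alternatives run.

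To compare levels between genes, CPM was divided by the length of the transcript in kilobases. Jund was the highest member in every library, at 114 CPM per kb on TCP, 102 on GelMA and 133 on GelMA-PSS, and Fosb was the lowest, at 0.354, 0.445 and 0.431. Junb, Egr1, Ier2 and Jun filled the next 4 places in each library, followed by Fosl2, with Fos, Egr2 and Fosl1 below it. Neighbours whose counting intervals overlapped were Fos and Egr2 on TCP (5.63 and 5.59) and Egr1 and Junb on GelMA (80.1 and 78.3). The Jun family outweighed the Fos family in every library, a comparison within each library that the scaling between libraries does not touch. The summed level of the Jun genes was 210.3 CPM per kb on TCP, 218 on GelMA and 248 on GelMA-PSS, and that of the Fos genes 23.1, 30.0 and 28.1, so that Jun transcripts were 9.11, 7.26 and 8.85 times as abundant as Fos transcripts.

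The makeup of the Fos family differed more between substrates than that of the Jun family. Fosl2 made up 59.2% of the Fos family per length on TCP, 59.1% on GelMA and 41.5% on GelMA-PSS. Fosl1 made up 14.9%, 22.7% and 32.6%, and Fos made up 24.4%, 16.7% and 24.4%. By these values there were 3.99 Fosl2 transcripts for each Fosl1 transcript on TCP, 2.60 on GelMA and 1.27 on GelMA-PSS. Fosl2 is the long transcript and Fosl1 a short one, so the dependence on length given above enters these shares. Reads of Ccdc85b, which shares exonic bases with Fosl1, could enter them too, which was not tested. In the Jun family, Jund made up 54.1%, 46.7% and 53.3%, Junb 28.9%, 35.9% and 29.7%, and Jun 17.0%, 17.3% and 16.9%. The share of Jun was therefore nearly the same in the 3 libraries while on GelMA that of Junb was higher and that of Jund lower than on the other substrates. The level of Egr1 was 10.3 times that of Egr2 per length on TCP, 9.67 times on GelMA and 12.4 times on GelMA-PSS.

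**Figure D4:**
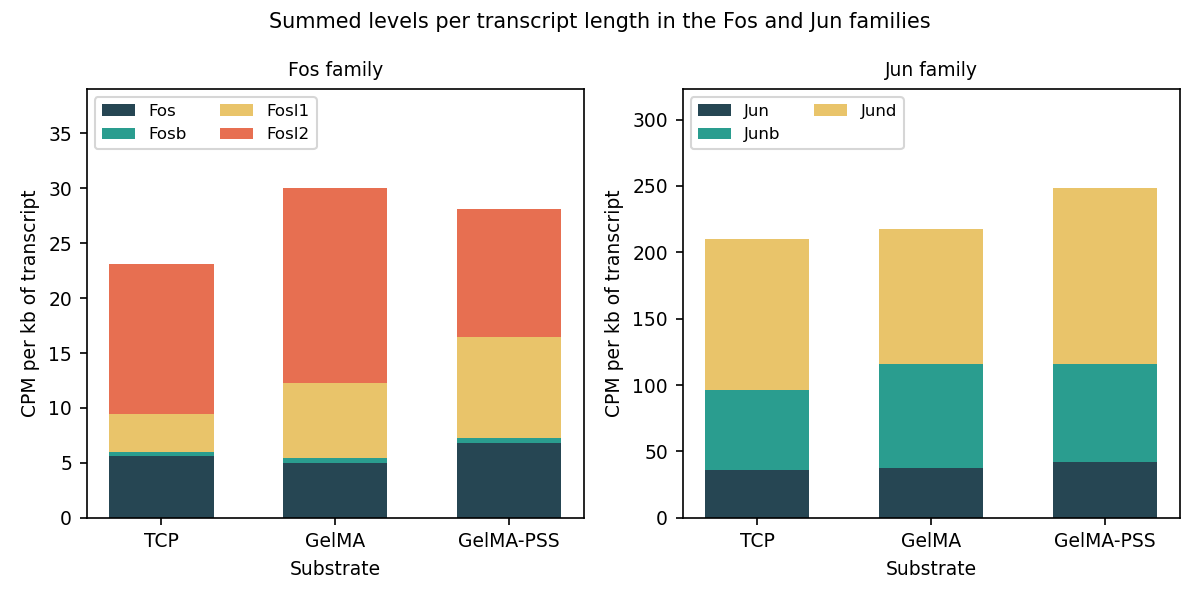
Summed TMM-scaled CPM per kilobase of transcript in the Fos family (left) and the Jun family (right) on each substrate, stacked by gene, with 1 library per bar and no error. Fosl1 takes 14.9% of the Fos bar on TCP, 22.7% on GelMA and 32.6% on GelMA-PSS, and Jund is the largest part of every Jun bar.

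Lists of related genes were described with TMM scaling alone, and with TPM their ratios for GelMA-PSS would shift as those of all genes did. Of the other immediate early genes, 39 of 40 listed passed the CPM limit. On GelMA-PSS 17 of them were higher than both controls and 10 lower, against 45.3% and 39.3% of all genes, with median log2 ratios of 0.08 (over GelMA) and 0.03 (over TCP). For GelMA over TCP the median was -0.01, with 18 of 39 above 0, where the 10 AP-1 and Egr genes had a median of 0.37. Against TCP 2 of the 39 passed 2-fold upward on GelMA-PSS, as did 3.72% of all genes, and against GelMA 1 passed downward, as did 2.33%. Nfkbia, the inhibitor that holds NF-kB in the cytoplasm, had a CPM of 11.0 on TCP, 16.9 on GelMA and 28.1 on GelMA-PSS. The third Egr gene, Egr3, was lower on GelMA-PSS, at 22.5 against 44.8 on TCP and 46.3 on GelMA, with log2 ratios of -0.96 and -1.01. Egr2 and Egr3 were thus both lower on GelMA-PSS than on GelMA, while Egr4 had 2 counts on TCP and 0 on both hydrogels, at or under the floor of 3 counts. Bhlhe40, a transcriptional repressor of the circadian clock, had log2 ratios of -0.75 against TCP and -0.59 against GelMA. Errfi1, an inhibitor of the EGF receptor, was named after its values were seen because it passed 2-fold against TCP (1.07).

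Among other bZIP genes that can pair with AP-1 proteins, 9 of 12 passed the limit, and on GelMA-PSS 6 were lower and 3 higher than both controls, against 39.3% and 45.3% of all genes. The medians were -0.43 (over GelMA) and -0.38 (over TCP). The large Maf factor Maf and the small Maf factor Mafk differed from the mean of the controls by -0.87 and -0.64 on the log2 scale. Maf had a CPM of 19.4 on TCP, 13.7 on GelMA and 8.52 on GelMA-PSS and was the member of the list that passed 2-fold against TCP, at -1.10. Atf3, a stress-induced factor that pairs with Jun proteins, was chosen after its values were seen. Its CPM of 25.9 on TCP, 16.1 on GelMA and 31.0 on GelMA-PSS ran in the order of Fos and Jund, with GelMA-PSS above GelMA by 0.90 and above TCP by 0.25 on the log2 scale.

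The kinases and factors upstream had median ratios slightly below 0 on GelMA-PSS. Of 29 expressed genes, 7 were higher and 15 lower on GelMA-PSS than both controls (45.3% and 39.3% of all genes), with medians of -0.11 (over GelMA) and -0.12 (over TCP). Srf, the serum response factor, had a CPM of 63.2 on TCP, 64.8 on GelMA and 58.2 on GelMA-PSS. Mapk3, which encodes the kinase ERK1, had 80.5, 106 and 131. Elk4, a partner of the serum response factor, was the gene of this list that passed 2-fold, with log2 ratios of -1.32 (over GelMA) and -0.73 (over TCP). Mkl2, a coactivator of the same factor, and Braf, a kinase above ERK, had ratios to the mean of the controls of -0.74 and -0.72, which the length and GC correction brought to -0.40 and -0.16.

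The negative feedback genes limit the response of this pathway. Of 18 genes, 4 were higher and 10 lower on GelMA-PSS than both controls (45.3% and 39.3% of all genes), with medians of -0.15 (over GelMA) and -0.08 (over TCP), and none passed 2-fold in any comparison. Dusp1, a phosphatase of mitogen-activated protein kinases, had a CPM of 75.6 on TCP, 53.7 on GelMA and 78.8 on GelMA-PSS. Zfp36, which binds mRNAs with AU-rich elements and speeds their decay, had 7.95, 7.44 and 9.49. Dusp1 had the order of Fos and Jund, lowest on GelMA and highest on GelMA-PSS, while the counting intervals of Zfp36 on TCP and GelMA overlapped. Nab2, a corepressor of Egr proteins, had 81.8, 74.1 and 73.4. Spry4 and Sik1 had log2 ratios to the mean of the controls of -0.75 and -0.74, and the phosphatase Dusp10 one of 0.69.

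With TMM scaling, known target genes of AP-1 or Egr factors had median ratios above 0 on both hydrogels. Of 16 listed, 12 passed the CPM limit and the metalloprotease genes Mmp3, Mmp9, Mmp10 and Mmp13 did not. On GelMA-PSS 9 of the 12 were higher and 1 was lower than both controls, against 45.3% and 39.3% of all genes, with medians of 0.39 (over GelMA) and 0.94 (over TCP), and GelMA had a median of 0.50 against TCP, with 11 of 12 above 0, against 48.3% of all genes. Plaur, the receptor of urokinase, had a CPM of 9.22 on TCP, 17.0 on GelMA and 35.1 on GelMA-PSS, and passed 2-fold against both controls with log2 ratios of 1.82 and 1.01. Hmga1, a chromatin protein of proliferating cells, had 81.6, 153 and 255, and Timp1, an inhibitor of metalloproteases, had 199, 256 and 469. Ccl2 and Ccnd1, the other 2 that passed 2-fold against TCP, were named after their values were seen, with log2 ratios of GelMA-PSS of 1.84 and 1.35 against TCP and -0.10 and 0.35 against GelMA. With length and GC content corrected, the medians of the list were 0.30 (over GelMA) and 0.85 (over TCP). Against GelMA the correction brought Plaur from 1.01 to 0.71, short of 2-fold, Hmga1 from 0.73 to 0.26 and Timp1 from 0.87 to 0.34. With TMM scaling, Fosl1, Jun and Ier2 ran in the order of Plaur, Hmga1 and Timp1, lowest on TCP and highest on GelMA-PSS. This is an order over 3 libraries only. Plaur, Hmga1 and Timp1 were named for the largest differences from the mean of the controls in the list. A level on GelMA-PSS far from the controls was thus part of their choice, and a link between them and the members was not tested. After the length and GC correction Ier2 was highest on GelMA, and with TPM Fosl1, Jun and Ier2 all were. With TMM scaling, genes outside the list, such as Nfkbia and Mapk3, were also lowest on TCP and highest on GelMA-PSS. The share of all genes with that order was not counted.

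**Figure D5:**
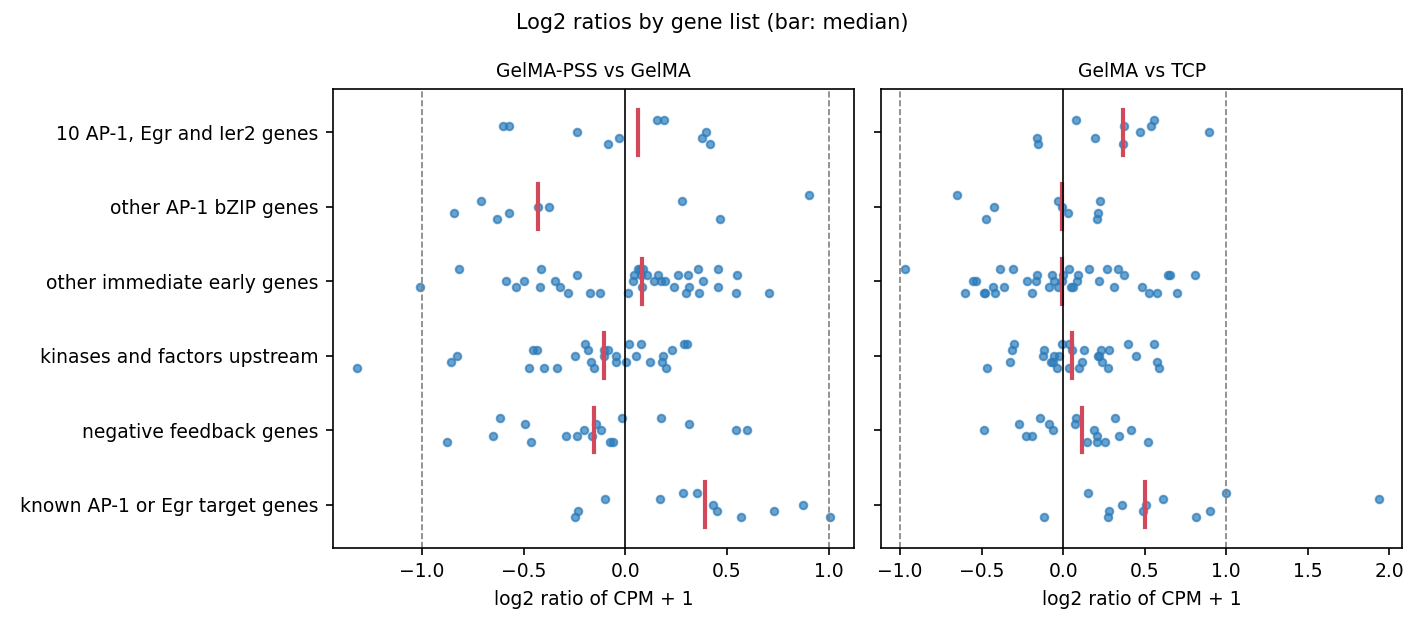
Log2 ratios of CPM + 1 (TMM scaling) for the 10 genes and 5 lists of related genes, for GelMA-PSS against GelMA (left) and GelMA against TCP (right). Each point is a gene, red bars are medians and dashed lines mark 2-fold. The 10 genes have medians of 0.06 on the left and 0.37 on the right, and the target genes 0.39 and 0.50.

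The genes whose pattern over the 3 libraries was nearest to that of Fos were Dap3, Gpn3 and 1810043G02Rik, at Euclidean distances of 0.003, 0.004 and 0.005 between centred log2 levels. Those nearest to Egr1 were Amt, Itgb4 and Pign, at 0.003, 0.011 and 0.011. With only 3 points a pattern is easily matched, and of 12371 genes compared, 776 lay within 0.1 of Fos and 137 within 0.1 of Egr1.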

How the data were processed

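RNA-seq counts of 3 libraries, 1 per substrate, were analysed. Raw counts were deposited, with 1 value per symbol line and library. Per the labels, the submitters' processing notes name TopHat, edgeR and the builds mm10 and hg19, and the counting tool, its strand setting and the annotation are not given in the sources used here. The labels name a SMARTER kit and the methods a TruSeq kit with strand-specific reads. The methods describe FPKM values, which were not used here.

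Lines that share a symbol were summed. Libraries were scaled by TMM (edgeR 4.0.16, R 4.3.3) and analysed in Python 3.11.15 with pandas 2.3.3. Genes were kept where any library reached a CPM of 1, the pseudocount was 1 and the threshold 2-fold. Wilson intervals (scipy 1.17.1) and the counting SE treat reads as independent, so they would be too narrow had the 2 mates of a fragment been counted apart. Floors were set at 3 counts. Transcript length, GC content and positions came from GENCODE vM21 on GRCm38, the assembly of mm10, with 22197 symbols matched directly, 649 through older symbols and 392 unmatched. The correction subtracted loess fits (span 0.3, statsmodels 0.14.6) on length and then GC content. The scripts were tested on simulated counts.

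The members and lists were chosen with earlier results of these data known. The text names all members, the 3 genes of each list with the largest difference from the mean of the controls, Srf, Mapk3, Dusp1, Zfp36 and Nab2, and the 3 nearest patterns to Fos and Egr1. Some genes that this rule names are not reported here. Alternatives covered scaling, pseudocount, filter, threshold and the length and GC correction.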

Additional observations from a re-analysis of the deposited data

How the results depend on the processing

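The values of the members did not move beyond their counting intervals with median-of-ratios size factors or without the filter on low values, and 1 of 30 moved with a pseudocount of 0.1 CPM, but 22 of 30 did with total counts alone, 26 with TPM and 20 with the length and GC correction. With total counts alone the median log2 ratio of the members was -0.0557 for GelMA-PSS against GelMA, 0.12 for GelMA-PSS against TCP and 0.41 for GelMA against TCP. With TPM without TMM factors these medians were -0.29, -0.16 and 0.42, and the members past 2-fold became 1 for GelMA-PSS against GelMA (Fosl2, -1.03) and 0 for GelMA-PSS against TCP. With a 1.5-fold threshold 1 member passed for GelMA-PSS against GelMA, 2 for GelMA-PSS against TCP and 1 for GelMA against TCP. With length and GC corrected, the median for GelMA-PSS against TCP was 0.26, and 3 members changed sign for GelMA-PSS against GelMA (Fosb, Egr1 and Ier2) and 1 against TCP (Fosl2). TPM scales each library by its sum of length-scaled counts in place of its TMM-scaled total. Apart from the pseudocount, a gene's own length cancels in its ratio between libraries. What in the libraries made the settings differ was not tested. With a single library per substrate, counting error limits Fosb and, for GelMA-PSS against TCP, Egr2, and differences between cultures could not be measured. No paired analysis was possible because each group holds 1 library and the result comes from no test.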
